A study of Rattus norvegicus with 6 samples.

Results

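The nuclear genes of the mitochondrial respiratory chain were taken from a table of rat retinal RNA by their symbols: the Nduf, Sdh, Uqcr, Cox and Atp5 series, Cyc1 and Cycs. The pattern matched 111 rows of the table, and rows that share a symbol in any letter case were summed, which gave 104 genes of 19623 symbols in all. The series behind the table sequenced neural retina of rats at postnatal day 60, with 2 samples in each of 3 groups. The grafted group was of the RCS strain (Royal College of Surgeons), which lacks working Mertk and loses its photoreceptors, and received human neural progenitor cells (hNPCs) under the retina at postnatal day 21. The others were RCS rats given a sham injection of carrier medium and Long Evans rats, a pigmented strain with normal photoreceptors, given the same sham injection. Only retina near the graft was extracted from grafted eyes, and a matching piece from sham eyes, and whether the samples are separate animals is not stated in the labels.

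The table holds 1 value per gene in FPKM (fragments scaled by transcript length and by the number of mapped fragments), each with a lower and an upper bound, and it names no sample or group. The values therefore describe 1 library or 1 pool, no group was compared with another, and no replicate error, fold change between groups or p-value can be given. Intervals in parentheses below are the deposited bounds, or, for a sum of rows, bounds computed from them. They are read as counting error at 2 standard errors on each side, and the number of fragments that such an interval implies is given as the depth behind a value. The intervals do not cover error in the transcript length by which FPKM is divided. Ratios between genes of unlike length therefore carry an error that is not given here. Subunits at 1 FPKM or more rested on 29 to 7611 implied fragments, with a median of 382. In bulk RNA, fewer cells of a type and less RNA per cell cannot be told apart. All 18 retinal marker genes were above 1 FPKM, where 61% of all symbols reached it. The rod transducin genes led the markers, with Gngt1 at 6641 FPKM and Gnat1 at 6316 FPKM.

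As background, the respiratory chain passes electrons from NADH (complex I) or succinate (complex II) through ubiquinone to complex III, then by cytochrome c to complex IV, where oxygen is reduced. Complexes I, III and IV pump protons, and complex V, the ATP synthase, uses the gradient to make ATP. Most subunits are encoded in the nucleus and the rest in mitochondrial DNA, and photoreceptors hold dense mitochondria in their inner segments.

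Most of the matched genes stood at high levels. The set holds only symbols that have a row in the table, so how much of the chain the table covers was not measured. Of the 104 genes, 96 (92.3%) reached 1 FPKM, where 61% of all symbols did. At 10 FPKM or more stood 87 members (83.7%), against 28.9% of all symbols, and at 100 FPKM or more stood 24 members (23.1%), against 1.79% of all symbols. The median level of the members was 54.6 FPKM, and that of all symbols was 3.17 FPKM, or 9.21 FPKM among symbols at 1 FPKM or more. Together the members held 2.75% of the summed FPKM of all symbols, and 0.931% of the implied fragments of all rows. Their summed 8049 FPKM includes 873 FPKM of Cox7a2l2 and 621 FPKM of copy rows, both described below. The 8 members below 1 FPKM were Cox6a2, Cox8b, Cox8c, Ndufa4l2, Cox6c-ps1 and Ndufb3l, all listed at 0, with Ndufb4l1 at 0.295 FPKM and Cox6b2 at 0.303 FPKM. An exact 0 in this table is not read as absence, because all 37 rows of the mitochondrial chromosome, which carry the mitochondrial part of the same complexes, were listed at 0 as well.

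The complexes differed in the level of a typical subunit. The median was highest for complex V, at 127 FPKM over 15 subunits. It was 81.2 FPKM for the 17 nuclear subunits of complex IV, 75.1 FPKM for the 9 of complex III, 61.1 FPKM for the 4 of complex II and 50.4 FPKM for the 36 of complex I. The ranges overlapped, from 9.17 to 397 FPKM in complex V and from 17.2 to 129 FPKM in complex I. The low end of complex V is Atp5h, whose value comes from a row at another locus, as described below, and the next lowest was Atp5d at 45.5 FPKM. Assembly factors, which help to build complexes I and IV but are not part of them, were lower, with a median of 11.9 FPKM over 15 genes. The order of the 5 complexes was the same under 7 of 8 other ways of counting the rows. Some of these ways left all 5 medians unchanged. Keeping only rows of status OK dropped no member row, and dropping rows that span under 300 bp removed no subunit, so neither could change the order. Moving Ndufa4 and Ndufa4l2 to complex I also left the medians as they were. The order changed when assembly factors and related entries were pooled with the subunits, which put complex IV at 40.5 FPKM, below complexes II and III.

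**Figure D1:**
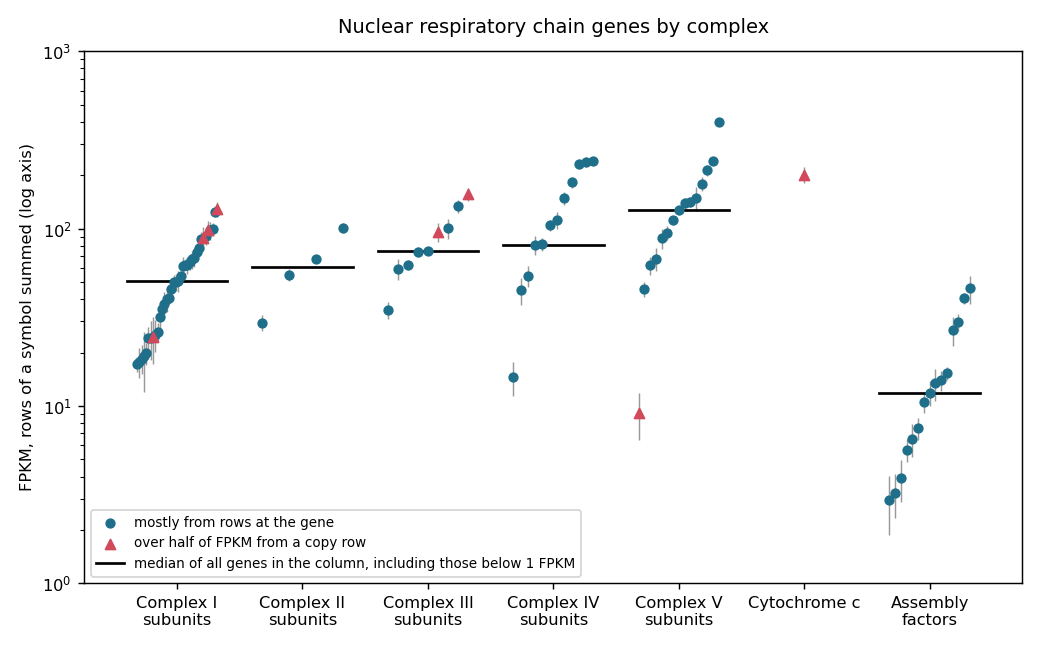
FPKM of each member on a log axis, by complex, with rows of a symbol summed; bars are the deposited or computed counting bounds, black lines are medians, red triangles mark genes that draw most of their FPKM from a copy row elsewhere in the genome, and genes below 1 FPKM are not drawn. The median line is highest for complex V (127 FPKM) and lowest for the assembly factors (11.9 FPKM), and the ranges of the complexes overlap.

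Complex I takes electrons from NADH and is the largest of the 5. The values summed under its 36 subunit symbols were all above 10 FPKM, and 1 of them, Ndufs6, came from a copy row alone. Its 7 nuclear core subunits, which carry the redox centres and have bacterial relatives, had a median of 40.6 FPKM, and its 29 supernumerary subunits had a median of 61.4 FPKM. All complex I copy rows, described below, fall in the supernumerary group. They held 70.0% of the FPKM of Ndufb4, 60.8% of Ndufs5, 70.0% of Ndufv3 and 100% of Ndufs6. The supernumerary median was not recomputed without them, so its distance from the core median is not firm. Among the core subunits, Ndufs3, in the peripheral arm, was lowest at 19.8 FPKM (17.0 to 22.5). Ndufv1, which binds NADH and flavin, was at 40.6 FPKM (37.4 to 43.7), and Ndufs1, which holds iron-sulfur clusters, was at 35.3 FPKM (33.2 to 37.5). These 3 genes were named after their values were seen. The row of Ndufs3 overlaps that of Kbtbd4, and the strand setting of the counting is not stated. The intervals of Ndufv1 and Ndufs1 did not overlap that of Ndufs3, although the 3 products are present in equal number in the enzyme.

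Among the supernumerary subunits of complex I, Ndufs5 had the highest summed value at 129 FPKM (117 to 141), of which 60.8% came from a copy row described below. Ndufb8, a subunit of the membrane arm, followed at 125 FPKM (116 to 134), then Ndufb9 at 98.9 FPKM (91.0 to 107). The lowest were Ndufa10, at 17.2 FPKM (15.5 to 19.0), and Ndufab1, the mitochondrial acyl carrier protein, whose row overlaps Cog7, at 17.8 FPKM (14.3 to 21.3). Ndufb8 was 7.24 times Ndufa10 (95% counting interval 6.40 to 8.20), and 1.94 times by implied fragments, which are not divided by length. The 10 genes of the Ndufb series, whose products sit in the membrane arm, had a median of 82.5 FPKM, against 48.1 FPKM for the 12 of the Ndufa series and 42.6 FPKM for the 8 of the Ndufs series. The Ndufb median counts Ndufb4, with 70.0% of its FPKM from a copy row. The Ndufs median counts Ndufs5 and Ndufs6, with 60.8% and 100% from copy rows. These medians were not recomputed without the copy rows, so the order of the Ndufa and Ndufs series is not firm.

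Complex II, succinate dehydrogenase, also belongs to the citric acid cycle and is built from nuclear genes alone. Sdhb, the iron-sulfur subunit, was at 101 FPKM (94.5 to 108), and Sdha, the flavoprotein that oxidises succinate, was at 67.2 FPKM (64.0 to 70.5). The membrane anchors were lower, with Sdhc at 55.0 FPKM (50.7 to 59.4) and Sdhd at 29.5 FPKM (26.4 to 32.5). None of the 4 intervals overlapped, and Sdhb exceeded Sdhd by 3.43 times (3.04 to 3.86). In implied fragments Sdha held 1717, Sdhb 953, Sdhc 641 and Sdhd 370.

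Complex III passes electrons from ubiquinol to cytochrome c. Its highest summed value was that of a small subunit, Uqcrb, a ubiquinol-binding protein, at 156 FPKM (143 to 168). Of this 76.7% came from a copy row, and the row at the gene was at 36.3 FPKM. Uqcrh, the hinge protein that helps cytochrome c1 meet cytochrome c, was at 134 FPKM (122 to 145), and Uqcrq was at 101 FPKM (87.8 to 113). Both redox subunits were below Uqcrh and Uqcrq in FPKM. Uqcrfs1, the Rieske iron-sulfur protein, was at 74.0 FPKM (69.4 to 78.7), named after its value was seen. Cyc1, cytochrome c1, was lowest at 34.8 FPKM (31.1 to 38.5), after Uqcr11 at 59.5 FPKM (51.3 to 67.8). Uqcrh was 3.84 times Cyc1 (3.35 to 4.39). In implied fragments the order was another, with 1009 for Uqcrfs1, 524 for Uqcrh, 352 for Cyc1 and 246 for Uqcrq. The core proteins, also named after their values were seen, lay close together, with Uqcrc2 at 75.1 FPKM (71.2 to 79.0) and Uqcrc1 at 62.6 FPKM (58.7 to 66.4).

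Complex IV, cytochrome c oxidase, has its catalytic subunits in mitochondrial DNA, and the nuclear subunits surround them. Cox4i1, Cox7c and Cox8a stood together at the top of the nuclear subunits, with Cox4i1 at 241 FPKM (228 to 253), Cox7c at 238 FPKM (221 to 255) and Cox8a at 232 FPKM (216 to 248), whose intervals overlapped. At the other end Cox5a was at 14.5 FPKM (11.3 to 17.7), the lowest subunit above 1 FPKM, ahead of Cox6b1 at 44.9 FPKM (37.1 to 52.7). Cox7c was 16.4 times Cox5a (13.0 to 20.6), and this was a wider spread than in complexes I to III. Ndufa4, first named for complex I and now counted with complex IV, was at 104 FPKM (97.4 to 111), and its row overlaps that of Phf14.

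Several complex IV subunits come in tissue isoforms. For Cox6a, Cox6b and Cox8, and likewise for Ndufa4 and cytochrome c, the common or liver-type gene held nearly all of the summed FPKM, in part because the other gene was listed at 0, which is not read as absence. In the Cox4 family the second gene held a larger share, given below. Cox7a2 is set below beside Cox7a2l, which is counted here as a supercomplex factor and not as a tissue isoform. Cox6a1, the liver-type gene, was at 182.5 FPKM (169 to 196), while its heart and muscle counterpart Cox6a2 was listed at 0. Cox8a was at 232 FPKM, and both its heart-type counterpart Cox8b and its testis-type counterpart Cox8c were listed at 0. Cox6b1 held 99.3% of the summed FPKM of its pair (98.0% to 100%), with the testis gene Cox6b2 at 0.303 FPKM (0 to 0.908), which rests on 1 implied fragment. Ndufa4 stood beside a listed 0 for Ndufa4l2, a relative induced by hypoxia. Somatic cytochrome c, Cycs, held 99.5% of its pair (99.3% to 99.7%), with a summed 201 FPKM (179.7 to 222), of which 80.9% came from a copy row described below, beside the testis gene Cyct at 0.947 FPKM (0.560 to 1.33).

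Genes that mark muscle and testis, the tissues of several of the rarer isoforms, were at 3.60 FPKM or less in the same table, and many were listed at 0, which is again not read as absence. Of 17 striated muscle genes, 5 reached 1 FPKM, where 61% of all symbols did. The cardiac myosin gene Myh6 was highest at 3.60 FPKM and Mylpf next at 3.17 FPKM. The list summed to 14.5 FPKM, and Mb (myoglobin), Myl1, Myl2, Myh4 and Tnni2 were listed at 0. None of 10 germ cell genes of the testis reached 1 FPKM. Their sum was 2.17 FPKM, 7 of them, the protamine genes Prm1 and Prm2 included, were listed at 0, and the highest were Cyct and Gapdhs, with Gapdhs at 0.657 FPKM.

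Cox4i2, known from lung and as a hypoxia-responsive isoform, was at 81.7 FPKM (74.4 to 88.9; 505 implied fragments), beside 241 FPKM for Cox4i1. It held 25.3% of the summed FPKM of the pair, a ratio of Cox4i2 to Cox4i1 of 0.339 (0.307 to 0.375). Its row (ENSRNOG00000007827) lies on chromosome 3 at 154637663 to 154648535 (rn5), overlaps no other row of the table, and lies among the same neighbouring genes as Cox4i2 in the RefSeq annotation. Mural cells of blood vessels, smooth muscle cells and pericytes, are another known source of Cox4i2. Of 9 genes that mark them, 5 reached 1 FPKM, where 61% of all symbols did. Rgs5 at 27.1 FPKM and Tagln at 2.93 FPKM were the highest, Pdgfrb was at 2.34 FPKM and Cnn1 was listed at 0. The list summed to 37.3 FPKM. The part of such cells in the level of Cox4i2 was not tested. Among regulators of the hypoxia response, Hif1a was at 95.2 FPKM and Epas1 at 36.3 FPKM.

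**Figure D2:**
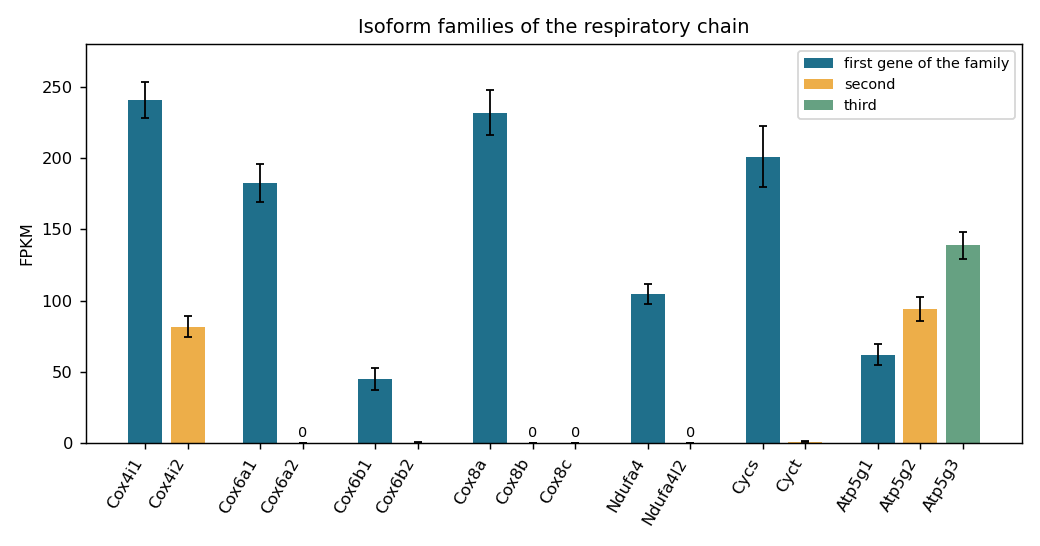
FPKM of the genes of 7 isoform families, with deposited or computed counting bounds and 0 written above genes listed at 0; the colours give the order of the genes within a family. Cox4i2 stands at 81.7 FPKM beside Cox4i1 at 241 FPKM, while the second genes of the Cox6a, Cox6b, Cox8, Ndufa4 and cytochrome c families are below 1 FPKM.

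The ATP synthase holds a catalytic head, F1, which is turned by a ring of c subunits in the membrane and held still by a peripheral stalk. In F1, Atp5b, the catalytic beta subunit, had the highest value of all subunits at 397 FPKM (388 to 406), and its partner Atp5a1, the alpha subunit, was at 240 FPKM (233 to 248). Atp5b was 1.65 times Atp5a1 (1.59 to 1.71), although alpha and beta alternate in equal number in the head. The single-copy rotor subunits were lower: Atp5c1 (gamma) at 112 FPKM (105 to 118), Atp5e (epsilon) at 88.4 FPKM (76.7 to 100.1) and Atp5d (delta) at 45.5 FPKM (402 implied fragments). Atp5c1 and Atp5e were named after their values were seen.

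The c subunit is made from 3 genes whose precursors differ in their import signals and give the same mature protein. Atp5g3 was highest at 139 FPKM (129 to 148), then Atp5g2 at 94.3 FPKM (85.9 to 103) and Atp5g1 at 62.0 FPKM (54.7 to 69.3), which gave them 47.0%, 31.96% and 21.0% of a summed 295 FPKM. Each step exceeded counting error, at 1.47 times (1.32 to 1.64) for Atp5g3 over Atp5g2 and 1.52 times (1.32 to 1.76) for Atp5g2 over Atp5g1. In the membrane part, Atp5l (subunit g) was at 214 FPKM (198 to 229). The stalk genes Atp5j, Atp5o and Atp5f1 lay between 127 and 179 FPKM, and Atp5h, the fourth, was at 9.17 FPKM (6.42 to 11.9), a value that belongs to a copy row. The 127 FPKM of Atp5f1, which is also the complex V median, sums 2 separate rows on chromosome 2, at 85.5 and 41.3 FPKM. Both lie among the neighbours of the gene, and neighbours cannot tell whether 1 of 2 such close rows is a copy.

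**Figure D3:**
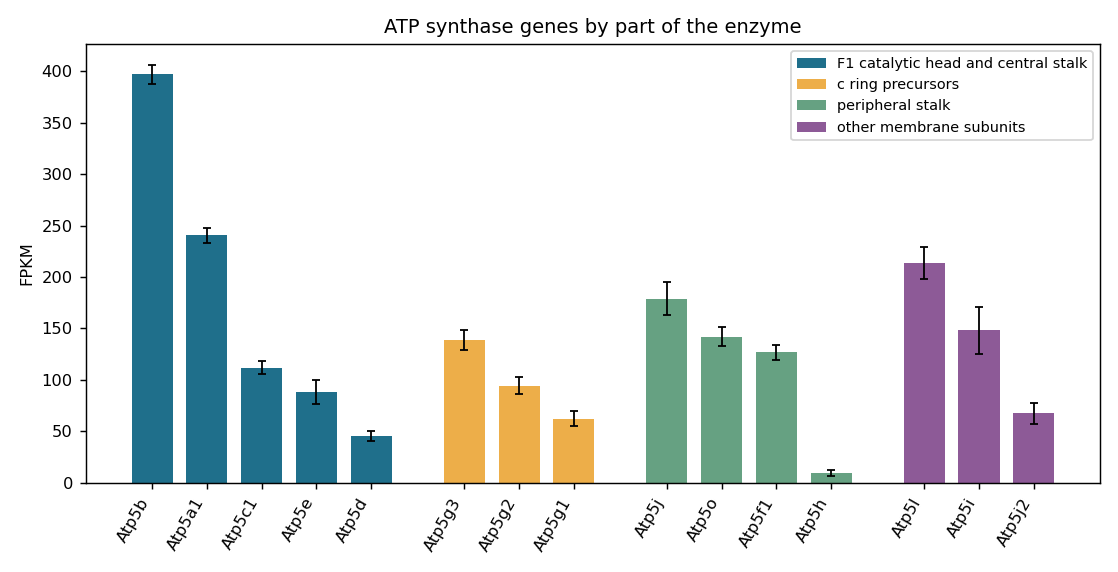
FPKM of the 15 ATP synthase subunit genes, grouped by part of the enzyme, with deposited or computed counting bounds. Atp5b (397 FPKM) is highest, the c ring precursors Atp5g3, Atp5g2 and Atp5g1 stand at 139, 94.3 and 62.0 FPKM, and Atp5h (9.17 FPKM), measured at a copy row alone, is lowest.

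Some symbols did not point at the gene they name. Each member row was placed by the named genes around it, which were compared with the neighbours of like-named genes in the RefSeq annotation. Of 111 rows, 101 lay among the neighbours of the gene itself, 2 could not be placed, and 8 lay among the neighbours of a different locus. Of these 8, 7 were at a locus that RefSeq calls a pseudogene, and 1 was at Ndufb4l4, a like-named coding locus. All 8 spanned 318 to 596 bp, whereas rows at the gene had a median span of 6559 bp. Together the 8 rows held 7.72% of the members' summed FPKM and 2.68% of their implied fragments.

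For Uqcr10, Ndufs6 and Atp5h the copy was the only row summed under the symbol. The row named Uqcr10 (chromosome 15, 89888371 to 89888805, rn5) shared 9 of 24 neighbours with Uqcr10-ps1 and stood at 96.0 FPKM (84.5 to 108). The row named Ndufs6 (chromosome 2, 45600795 to 45601209) shared 18 of 24 with Ndufs6-ps1 and stood at 24.6 FPKM (17.4 to 31.9). The row named Atp5h (chromosome 16, 51540712 to 51541307) shared 14 of 23 with Atp5hl1. These 3 values are not levels of the genes whose symbols they carry, and the levels of those genes are not analysed here. The values do enter the counts and medians of their complexes above. Without all 8 copy rows the medians were 49.7 FPKM for complex I, 68.3 FPKM for complex III and 133 FPKM for complex V, and the order of the complexes was the same.

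For the other 5 symbols the table held a row at the gene and a row at the copy, and the copy had the higher FPKM in all 5. For Cycs the copy row (chromosome 18, 61664138 to 61664455, among 16 of 24 neighbours of Cycs-ps9) stood at 163 FPKM (142 to 184), and the row at the gene on chromosome 4 at 38.3 FPKM (34.9 to 41.8), a ratio of 4.25 (3.64 to 4.96). By implied fragments, which are not divided by length, the same pair held 238 at the copy and 491 at the gene. For Uqcrb the copy was at 120 FPKM (108 to 132) and the gene at 36.3 FPKM (32.5 to 40.0), a ratio of 3.30 (2.86 to 3.799), with 403 fragments at the copy and 370 at the gene. Ndufb4 had a ratio of copy to gene of 2.34 (1.81 to 3.01), Ndufv3 of 2.33 (1.87 to 2.91) and Ndufs5 of 1.55 (1.29 to 1.86). In fragments the copy of Ndufv3, whose row overlaps Klhl12, was below the gene, with 97 at the copy and 438 at the gene. How fragments that match both a gene and its copy were divided is not given in the sources used here, so neither row is a firm level of the gene or of the copy.

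**Figure D4:**
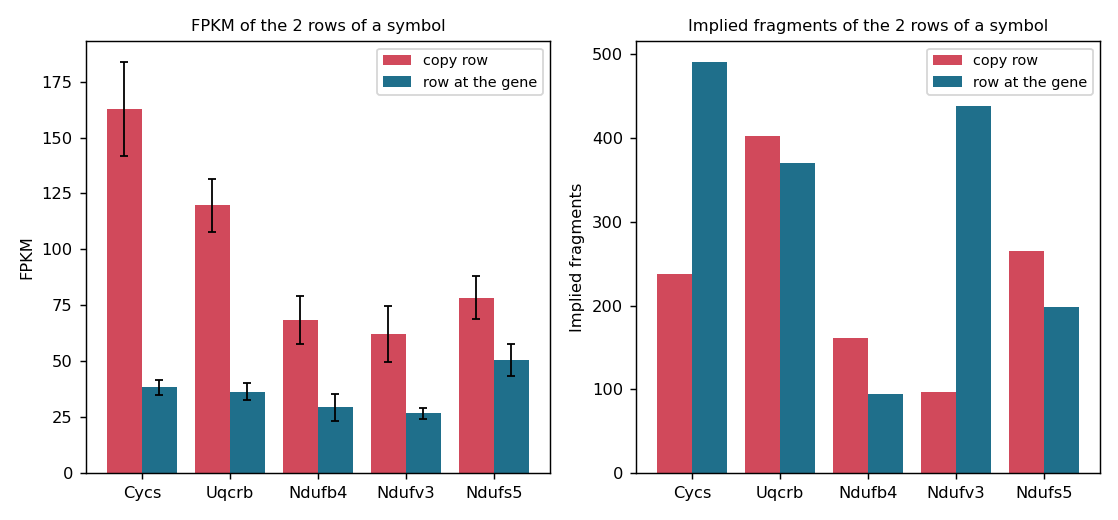
The 5 genes with a row at a copy locus (red, left of each pair) and a row at the gene (blue), in FPKM with deposited counting bounds on the left panel and in implied fragments on the right panel. The copy is higher in FPKM in all 5, while for Cycs and Ndufv3 the gene holds more fragments.

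The highest entry of the whole set was a row of this short kind that could not be placed. Cox7a2l2, a like-named relative of Cox7a2l that RefSeq lists as protein coding, was at 873 FPKM (840 to 907; 2703 implied fragments) and ranked 15th of 19623 symbols. It was named after its value was seen. Its row (ENSRNOG00000027791) is 453 bp long (chromosome 14, 52813655 to 52814107) and shared 2 of 21 neighbours with Cox7a2l2 in RefSeq, under the 5 required. It stood 3.63 times above Cox4i1 (3.40 to 3.87) and 10.8 times above Cox7a2 (9.50 to 12.2). Cox7a2, the liver-type subunit, was at 81.2 FPKM (71.3 to 91.0), and Cox7a2l, which links complexes III and IV into supercomplexes, was at 74.5 FPKM (69.1 to 79.9). Cox7a2 held 52.1% of the summed FPKM of this pair (48.7% to 55.6%), and 26.5% of its implied fragments.

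Genes that build the complexes were lower than the subunits, and their ranges overlapped. Cox17, a copper chaperone, led the assembly factors at 46.1 FPKM (37.8 to 54.3), followed by Cox20, which assists the assembly of a mitochondrial subunit of complex IV, at 40.5 FPKM (37.5 to 43.4) and Ndufaf5 at 29.6 FPKM (26.3 to 32.9). The lowest were Ndufaf6, at 2.94 FPKM (1.86 to 4.01), and Ndufaf1, at 3.23 FPKM (2.32 to 4.13). Assembly factors with other names gave a similar picture. Of 24 measured, 22 were at 1 FPKM or more, against 61% of all symbols. The median of the 24 was 10.8 FPKM. The highest were Sdhaf1 at 42.5 FPKM and Coa5 at 38.6 FPKM, where Coa5 rested on 21 implied fragments.

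Some of the promoters of these genes hold short sequence words known from nuclear genes of mitochondria. NRF1 and the ETS family factor GABP (also called NRF2) are textbook regulators of respiratory genes, and YY1 is another. RefSeq promoter windows of build GRCr8, from 250 bases before to 50 after the start of the gene, were matched for 86 of 97 subunits, assembly factors and cytochrome c. Both strands were searched. The NRF1 word, spelled by the capitals in the first set of sequences below, was in the windows of 7 of 86 members (8.14%), against 1.16% of all protein-coding genes and 0.954% of all genes. The ETS word CCGGAAG was in 25 (29.1%), against 11.6% of protein-coding and 9.63% of all genes. The YY1 word AAGATGGCG was in 11 (12.8%), against 2.33% and 1.99%. At least 1 of these 3 words was in 39 of the 86 (45.3%), against 11.9% of all genes. The same share was not computed for protein-coding genes, in which each single word was more frequent than in all genes. None of the 3 words is part of another. The median GC content of the windows was 57.2% for members, 55.3% for protein-coding genes and 52.3% for all genes, and the part of base composition in these shares was not tested. The word of the photoreceptor factor CRX, TAATCC, was in 9.30% of member windows, against 7.11% of protein-coding genes, and that of the estrogen-related receptors, CAAGGTCA, in 4.65%, against 1.35%.

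The 7 windows with the NRF1 word are shown because, in proportion, members differed most from all genes in this word. Each stretch reads 5′ to 3′ on the strand of its gene, with the word in capitals. The 4 genes for subunits come first.
Atp5g2 (c ring), GRCr8 chr7:135678235-135678304, minus strand: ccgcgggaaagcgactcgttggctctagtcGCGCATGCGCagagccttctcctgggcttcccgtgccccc
Atp5i (membrane subunit e), GRCr8 chr14:1464754-1464823, plus strand: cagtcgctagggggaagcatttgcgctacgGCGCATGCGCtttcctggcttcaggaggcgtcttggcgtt
Atp5o (peripheral stalk), GRCr8 chr11:44657503-44657572, minus strand: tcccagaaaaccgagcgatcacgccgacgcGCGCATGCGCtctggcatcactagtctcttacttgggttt
Ndufa11 (complex I), GRCr8 chr9:1637487-1637562, plus strand: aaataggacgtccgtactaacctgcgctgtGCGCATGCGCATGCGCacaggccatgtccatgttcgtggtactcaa
Ndufaf4 (complex I assembly), GRCr8 chr5:43401607-43401676, plus strand: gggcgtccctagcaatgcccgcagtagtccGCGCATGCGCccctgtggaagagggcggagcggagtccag
Ndufaf5 (complex I assembly), GRCr8 chr3:147961567-147961636, plus strand: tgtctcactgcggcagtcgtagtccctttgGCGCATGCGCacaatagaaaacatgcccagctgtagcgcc
Cox18 (complex IV assembly), GRCr8 chr14:18149956-18150025, plus strand: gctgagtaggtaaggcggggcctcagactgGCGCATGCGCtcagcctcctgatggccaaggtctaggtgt

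Of these 7 genes, 3 belong to complex V, where the NRF1 word was in 3 of 14 windows, against 1 of 33 in complex I, 0 of 4 in complex II, 0 of 6 in complex III and 0 of 14 in complex IV. Assembly factors had the same share as complex V, with the word in 3 of 14 windows. The levels of the 7 genes were not alike: Atp5i stood at 148 FPKM, Atp5o at 142 FPKM, Atp5g2 at 94.3 FPKM and Ndufa11 at 25.3 FPKM, while the assembly genes Ndufaf5, Ndufaf4 and Cox18 stood at 29.6, 10.5 and 3.93 FPKM. In Ndufa11 the word occurs in overlapping copies, so its capitals run longer.

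In members the YY1 word lay mostly near the start of the gene. The word contains the letters ATG, those of a start codon, and whether its matches are start codons was not tested. Its strand and place are therefore not read as those of a site for the factor. The word lay on the strand of the gene in all 11 members that have it, against 70.9% of the 546 genes with the word. Of these 546 genes, 443 are protein-coding. The first base of the word was between 5 bases before and 50 bases after the start in 10 of the 11 members (90.9%), against 53.8% of those 546 genes. Complex I held 7 of the 11, and complex IV subunits held none. The 5 complex I windows in which the word ends within 30 bases of the start, and that of Uqcrc1, are given to show this common place.
Ndufs4, GRCr8 chr2:47794885-47794940, minus strand: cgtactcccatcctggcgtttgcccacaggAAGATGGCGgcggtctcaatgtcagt
Ndufs7, GRCr8 chr7:10110469-10110524, minus strand: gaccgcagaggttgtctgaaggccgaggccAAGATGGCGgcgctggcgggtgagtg
Ndufa9, GRCr8 chr4:161374141-161374190, minus strand: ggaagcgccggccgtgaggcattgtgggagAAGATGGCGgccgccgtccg
Ndufa6, GRCr8 chr7:115750288-115750332, minus strand: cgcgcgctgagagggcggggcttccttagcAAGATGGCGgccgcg
Ndufb8, GRCr8 chr1:253362907-253362945, minus strand: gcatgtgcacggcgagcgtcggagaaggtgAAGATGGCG
Uqcrc1, GRCr8 chr8:118468192-118468252, plus strand: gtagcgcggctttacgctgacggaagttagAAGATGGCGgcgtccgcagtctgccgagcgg

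The genes in this second set spanned a range of levels, from Ndufs7, an iron-sulfur core subunit, at 24.0 FPKM to Ndufb8 at 125 FPKM. A match describes the letters in a window and does not show that a factor binds there, and the absence of a match says nothing about the factor.

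**Figure D5:**
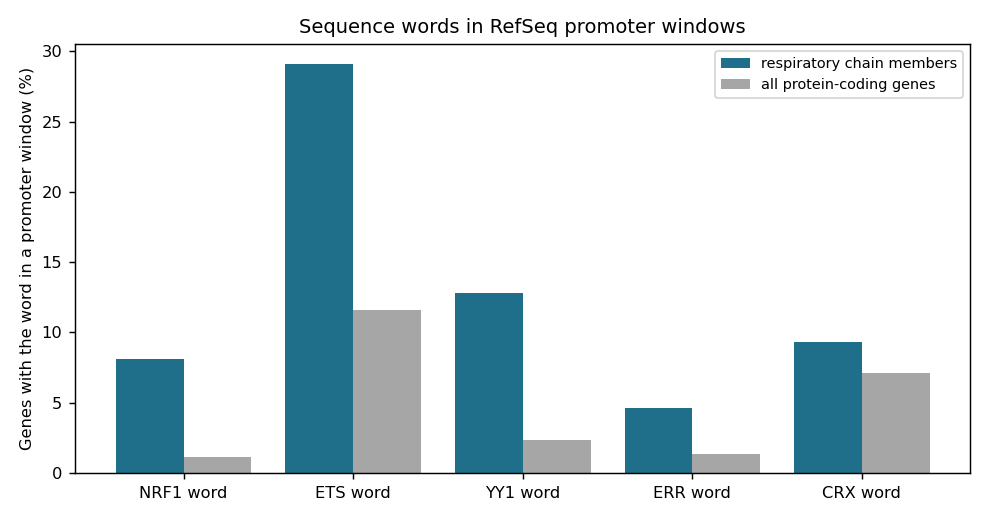
Percent of genes with each sequence word in a RefSeq promoter window, for the 86 members with a window (blue) and for all protein-coding genes (grey). The bars differ most in proportion for NRF1 (8.14% against 1.16%) and YY1 (12.8% against 2.33%), and least for CRX (9.30% against 7.11%).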

How the data were processed

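The authors deposited 1 table of FPKM per gene with lower and upper bounds, whose columns are those of a Cufflinks output, per the file headers. Version 2.0.8 of Cufflinks and build rn5 come from the submitters' processing notes. The sources used here do not give the aligner, annotation release, strand setting or confidence level. Libraries were made with an Ion total RNA kit, per the labels' protocols. Starts are counted from 0 in the table (1071 of 1131 olfactory receptor rows then span whole codons) and are printed from 1. Member rows all had the status OK.

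With Python 3.11.15, numpy 2.4.6 and pandas 2.3.3, FPKM of rows sharing a symbol were summed, ignoring case, with standard errors added in squares. Implied fragments are the square of 2 × FPKM over the distance to the upper bound, and they sum to 6124332 over all rows. Ratios carry 95% counting intervals. A row was placed at the RefSeq (GRCr8) gene of its symbol when at least 5 of 12 named genes on each side were among 25 on each side of that gene, and otherwise at the like-named locus sharing most. RefSeq held 86 symbols directly, 17 as synonyms, and 1 had no match. The word search and the formula for implied fragments were run on simulated input built to match them, which checks only the code. Row placement, summing, shares and ratio intervals were not tested in this way. Named are the 3 highest and 2 lowest subunits per complex, isoform families, members under 1 FPKM, 3 high and 2 low assembly factors and the 2 highest genes per list; others are said to be chosen after their values were seen. The planned fits between groups were not run, because no column names a sample. Members and lists were chosen with earlier results of these data known. Some single genes are not reported here.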

Additional observations from a re-analysis of the deposited data

How the results depend on the processing

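No paired analysis was possible because each gene has 1 value and no sample is named; for the same reason the fits between groups, the other pseudocount and the omission of single libraries were not run. Of 100 recomputed values for 15 results, 84 stayed within counting error (for the count of 96 genes, within 1.5 times) and 16 moved. The 84 include values that could not move. All member rows had the status OK, so keeping only such rows changed nothing, and dropping rows that span under 300 bp removed no subunit. The shares of Cox6a1, Cox8a and Ndufa4 are 100% beside a listed 0, which no setting could change. Settings on letter case, copy rows or the highest row could not change the shares in the Cox4, Cox6b and Cox7a families. The median of all members, 54.6 FPKM, was 50.2 FPKM with exact letter case, 62.1 FPKM with rows at 1 FPKM or more and 49.96 FPKM without the copy rows (an alternative added after seeing the data). The complex III median of 75.1 FPKM was 68.3 FPKM without copy rows, and the complex IV median of 81.2 FPKM was 108 FPKM with rows at 1 FPKM or more. The complex V median of 127 FPKM was 112 FPKM with the highest row per symbol and 103 FPKM with exact case. With assembly factors and other entries, the medians of complexes I, IV and V were 40.3, 40.5 and 112 FPKM. The share of Cox7a2 beside Cox7a2l, 52.1% by FPKM, was 26.5% by implied fragments. The share of Cycs beside Cyct was 97.6% with exact case or without copy rows and 96.8% by fragments. The share of Atp5g1, 21.0%, was 39.7% with exact case, which drops Atp5g3 (spelled in capitals), and 17.8% by fragments. Short subunits rest on few fragments, such as 29 for Ndufa3. Of the member rows, 12 overlap another row, among them Atp5j, Ndufa4 and Ndufs3, and without a stated strand setting their fragments cannot be assigned with certainty.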

Other observations

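Genes around the chain were also read. The 12 citric acid cycle genes measured were all above 10 FPKM, where 28.9% of all symbols reached it. The median of the 12 was 47.2 FPKM, and the highest was Mdh2 (malate dehydrogenase) at 63.9 FPKM. Their levels spanned 10.5 to 63.9 FPKM, which lay inside the span of the complex I subunits apart from Suclg2 at 10.5 FPKM. Among carriers of ATP and phosphate and their partners, 8 of 10 were above 1 FPKM, where 61% of all symbols reached it. The median of the 10 was 76.4 FPKM. Slc25a4, the ADP/ATP carrier of heart and muscle, was at 212 FPKM, above Slc25a5 at 80.2 FPKM by 2.65 times (2.47 to 2.84), while the muscle-type creatine kinase gene of mitochondria, Ckmt2, was listed at 0. The ATP synthase inhibitor gene Atpif1 was at 125 FPKM.

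All 16 regulators of mitochondrial gene expression were above 1 FPKM, where 61% of all symbols reached it. The median of the 16 was 14.2 FPKM. The highest was Esrrb, an estrogen-related receptor that in mouse is needed for rod survival, at 109 FPKM, and Hif1a was next at 95.2 FPKM. Esrrb was 15.2 times Esrra (13.0 to 17.8) and 5.84 times Esrrg (5.32 to 6.40), the relatives better known from heart and muscle. Nrf1 was at 15.7 FPKM, Gabpa at 10.4 FPKM, Yy1 at 29.0 FPKM and the coactivator gene Ppargc1a at 12.7 FPKM.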
